A study of Mus musculus with 33 samples.

Results

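The genes described here are 10 markers of Kupffer cells, the resident macrophages of the liver, followed in mouse liver after 70% partial hepatectomy. They are Marco, Cd5l, Clec4f, Timd4, Vsig4, Csf1r, Adgre1, Cd163, Folr2 and Cd68. Each was read from a probe set (a group of array probes that report on 1 transcript) annotated with that symbol alone, and where a gene had several, the brightest on average was taken. All 10 were measured, among 18193 genes with such a probe set, and all 10 were among the 13642 genes tested, which reached a log2 value of 5 on at least 3 arrays. Whole livers were collected at 10 times after surgery, the earliest 3 at 0.25, 0.5 and 0.75 days (d), then at 1, 1.5 and 2 d, and the last 4 at 3, 4, 7 and 14 d, and at 0 d, the baseline here. Each time had 3 livers, described as biological replicates. The labels used here name the species and the tissue but no strain, sex, age or genotype, and they place the 0 d livers at day 0 of the operation. Signals are log2 values, so a difference of 1 is a 2-fold change.

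Kupffer cells line the sinusoids of the liver, where they take up bacteria, dying cells and old red cells from portal blood. They are seeded in the embryo, renew themselves in place and depend on signalling through the CSF1 receptor, and monocytes from blood can replace them when they are lost. Some of their markers are nearly confined to them in the mouse, such as the lectin Clec4f, while others, such as Cd68 and Adgre1, mark macrophages in many tissues. After partial hepatectomy the remaining lobes grow back within days, and Kupffer cells are known as an early source of cytokines that prime hepatocytes to divide.

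The DNA upstream of 3 of the genes is shown because they took 3 different courses: Marco was higher early and late, Clec4f was lower early, and Cd163 passed the test in neither window. Each sequence is the 250 bases before the start of transcription, written 5′ to 3′ on the gene's strand, from RefSeq on GRCm38.p6. Capitals mark GAGGAA, a core read by the macrophage factor PU.1, or its reverse complement TTCCTC. The Marco sequence lies at chr1:120505025-120505274 on the minus strand, Clec4f at chr6:83656117-83656366 on the minus strand and Cd163 at chr6:124304401-124304650 on the plus strand.
Marco: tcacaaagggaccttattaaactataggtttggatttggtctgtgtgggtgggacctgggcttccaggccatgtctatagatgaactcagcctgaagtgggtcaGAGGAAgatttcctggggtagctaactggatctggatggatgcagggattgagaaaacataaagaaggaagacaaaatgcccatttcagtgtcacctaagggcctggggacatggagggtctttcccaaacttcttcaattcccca
Clec4f: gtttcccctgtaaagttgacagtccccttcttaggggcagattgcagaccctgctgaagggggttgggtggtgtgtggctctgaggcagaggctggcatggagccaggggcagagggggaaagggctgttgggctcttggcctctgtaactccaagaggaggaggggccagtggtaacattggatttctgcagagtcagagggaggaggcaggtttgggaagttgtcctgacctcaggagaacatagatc
Cd163: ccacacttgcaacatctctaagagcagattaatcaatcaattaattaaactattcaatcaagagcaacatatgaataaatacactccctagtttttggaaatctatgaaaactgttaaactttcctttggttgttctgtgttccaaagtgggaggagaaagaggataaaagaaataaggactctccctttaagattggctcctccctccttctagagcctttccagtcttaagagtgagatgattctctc
In these windows the core stands only in Marco, from 146 to 141 bases before the start. Upstream sequences were searched for 8 of the 10 genes, not for Adgre1 or Csf1r. The search of the markers skipped a chromosome that the background of promoters kept. Of the 8 genes, 4 held the core on either strand (Cd5l, Cd68, Marco and Vsig4), against 23.3% of 32851 promoters of the same length. The 8 genes had 9 such sequences, so the markers are counted by gene and the background by promoter. The C/EBP motif TTGCNNAA stood in Cd68 alone, against 9.56% of promoters. The AP-1 motif TGANTCA stood in Cd68 and Folr2, against 6.75%. The STAT motif TTCNNNGAA and the E-box CACGTG were in 0 of the 8, against 7.02% and 6.02%. Both strands were searched for each motif and no motif was required to stand apart from another. These matches describe the letters only.

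Array medians lay between 5.32 and 5.38, and albumin (Alb) stood between 14.6 and 14.8 on all 33 arrays. One label field mentions fat as the origin of the cells, whereas 2 others say liver, which is how the arrays are read here. The adipocyte hormone gene Adipoq reached 5 on 4 arrays: 5.38 in replicate 3 of 0 d, 5.80 in replicate 2 of 0.25 d, 5.86 in replicate 3 of 2 d and 7.07 in replicate 3 of 7 d. Replicate 1 of 4, 7 and 14 d each gave the highest value of its time in 10 of 10 markers, as did replicate 2 of 3 d. On the replicate 1 arrays of 4, 7 and 14 d the neutrophil gene S100a8 was also high, at 6.83, 7.84 and 8.17, against 5.68 and 6.61 on the other arrays of 4 d, 5.03 and 4.96 at 7 d, and 5.36 and 4.98 at 14 d. Their mean level over 12 pan-phagocyte genes, 8.69, 9.16 and 8.81, was likewise the highest of each time. The late differences of the markers from 0 d, and the late counts, are given with and without these 3 arrays. They were picked because the markers were highest on them, and leaving them out narrows the estimated spread. P-values of the fit without them are therefore descriptive and carry no support for a call. Replicate 2 of 3 d and replicate 3 of 14 d were kept. Replicate 3 of 14 d was lowest of its time in 10 of 10 markers and replicate 2 of 0 d in 9 of 10. The sample numbers of the 0.25, 0.5, 0.75 and 1.5 d livers form a run of their own. The early times and this run therefore cannot be told apart in a comparison with 0 d or with the late times. The steps from 0.75 to 1 d, from 1 to 1.5 d and from 1.5 to 2 d also cross the runs. Set against the mean of 1 d and 2 d, which lie in the other run, 1.5 d gave 0 of 10 markers past the threshold in limma (0 also at an unadjusted p under 0.05), where the background was 0.022% of all genes. The median difference of the markers in that comparison was -0.213.

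Over the 11 times, 9 of the 10 markers varied by limma's moderated F-test at a Benjamini-Hochberg adjusted p under 0.05, where 69.4% of all genes tested did so. Cd163 did not pass, with an adjusted p of 0.143. The courses of most markers had the same outline, shown in the plot of each marker by array. It was low at 0.5 and 0.75 d, with a peak at 1 d, lower values at 1.5 and 2 d, and a rise at 3 d. Of these times, 0.5, 0.75 and 1.5 d lie in the separate run of sample numbers. The median difference of the 10 markers from 0 d was -0.216 at 0.25 d, -0.698 at 0.5 d, -0.276 at 0.75 d, 0.599 at 1 d, 0.00285 at 1.5 d, -0.215 at 2 d, 0.787 at 3 d, 0.92 at 4 d, 1.01 at 7 d and 0.746 at 14 d. The same median over all genes tested stayed between -0.0461 and -0.00374. In whole liver, fewer Kupffer cells and less of a transcript per cell cannot be told apart.

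**Figure D1:**
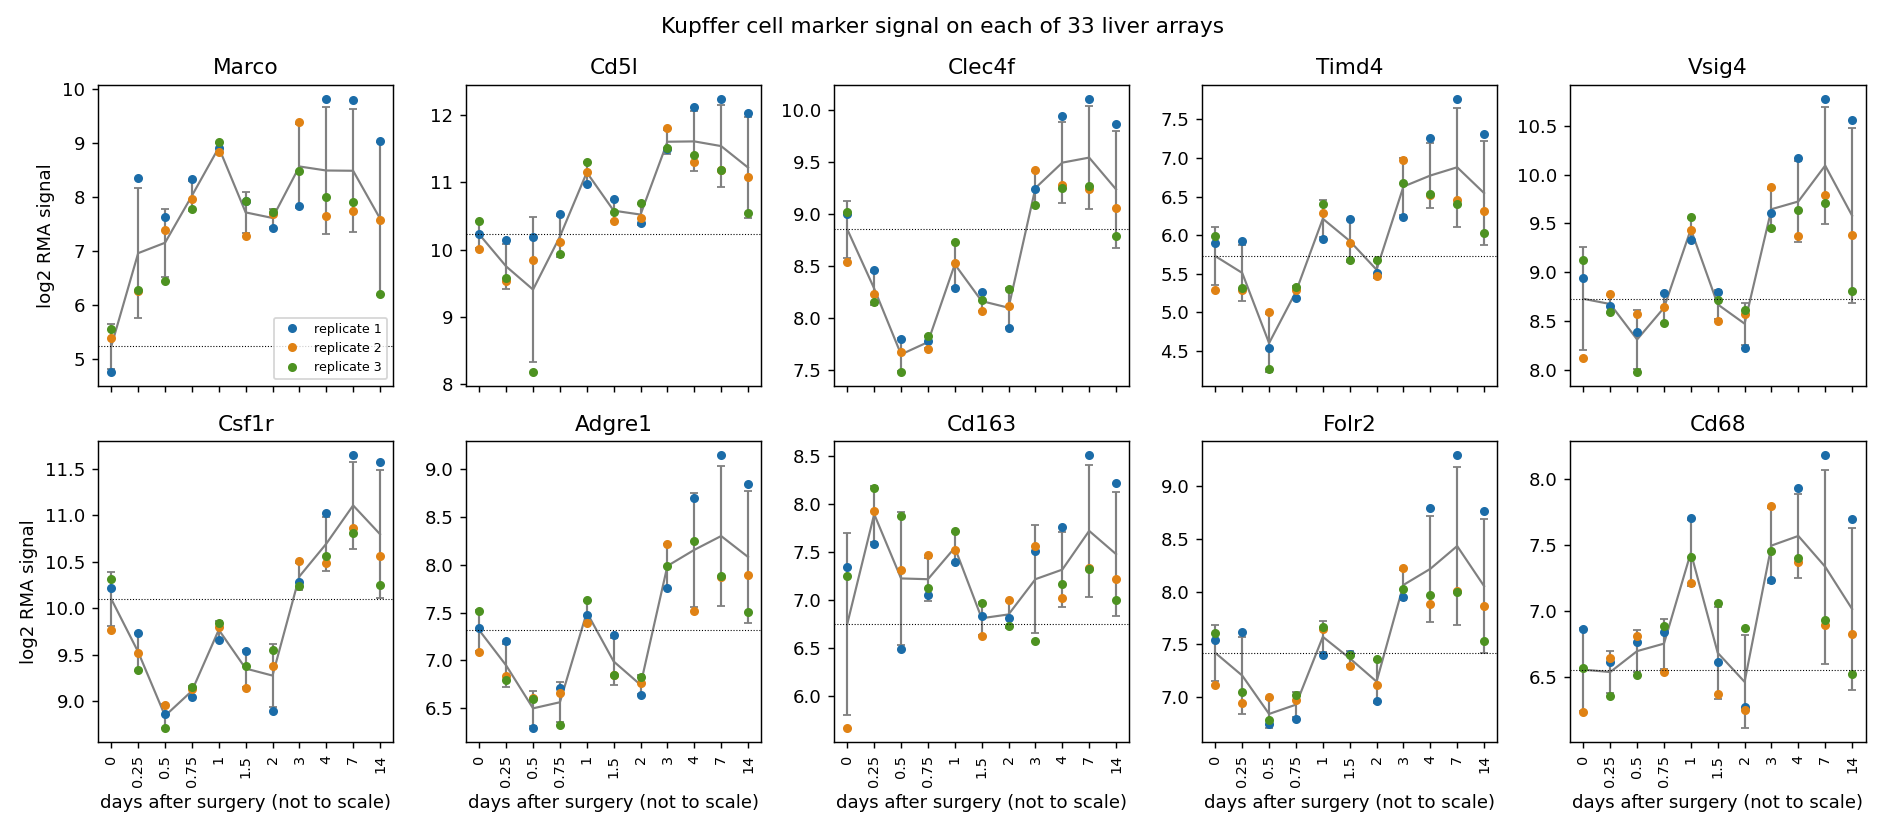
Log2 RMA signal of each Kupffer cell marker (vertical axis) on all 33 arrays against days after surgery (horizontal axis, evenly spaced), with points coloured by replicate, a line through the means and bars for the SD of 3 livers; the dotted line is the 0 d mean. Marco lies above its 0 d values at all later times, Clec4f and Csf1r dip at 0.5 d, and the replicate 1 points stand highest at 4, 7 and 14 d.

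To separate markers that fell early from those that rose late, the mean of 0.25, 0.5 and 0.75 d (early, 9 arrays) and the mean of 3, 4, 7 and 14 d (late, 12 arrays) were each set against 0 d (3 arrays). Early, 3 markers were lower and 1 was higher, where 24.4% of all genes were called lower and 17.3% higher. The early median was -0.435 over the 10 markers and -0.00657 over all genes. Late, 7 markers were higher and 0 lower (0 also at an unadjusted p under 0.05 in limma), where 2.47% of all genes were called higher and 2.85% lower. The late median was 0.807 over the markers and -0.0151 over all genes. Clec4f and Csf1r were the 2 markers with all early arrays below all of 0 d, as for 13% of all genes. Both comparisons use the same 0 d arrays.

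**Figure D2:**
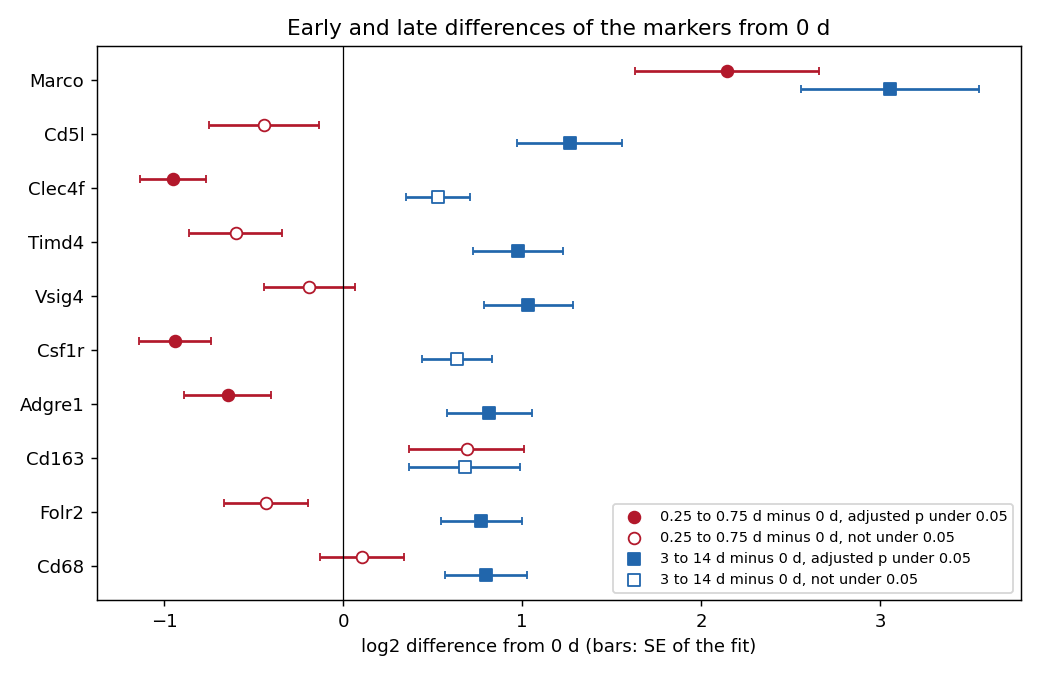
Log2 difference from 0 d (horizontal axis) of each marker (rows) in the early window of 0.25 to 0.75 d (red circles, upper) and the late window of 3 to 14 d (blue squares, lower), with bars for the SE of the fit and filled symbols for an adjusted p under 0.05. Clec4f, Csf1r and Adgre1 lie left of 0 early with filled symbols, Marco lies right of 0 in both windows, and all 10 late differences are right of 0.

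Markers called lower than 0 d numbered 1 at 0.25 d, 4 at 0.5 d, 2 at 0.75 d, 0 at 1 d, 2 at 1.5 d, 2 at 2 d and 0 at each of 3, 4, 7 and 14 d, where limma also gave 0 lower at an unadjusted p under 0.05. The background of all genes called lower was 28.8%, 19.4%, 12.7%, 9.55%, 11.7%, 11.6%, 10.9%, 0.975%, 0.0586% and 0% at these times in turn. Markers called higher numbered 2 at 0.25 d, 1 at 0.5 d, 1 at 0.75 d, 2 at 1 d, 1 at 1.5 d, 1 at 2 d, 5 at 3 d, 2 at 4 d, 1 at 7 d and 0 at 14 d (7 at an unadjusted p under 0.05). The background of all genes called higher was 17.2%, 15.8%, 9.84%, 8.16%, 8.33%, 11%, 10.2%, 1.88%, 0.125% and 0.0147% in turn. The 5 markers at 3 d were Marco, Cd5l, Timd4, Vsig4 and Cd68, and the 2 at 4 d were Marco and Cd5l.

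Clec4f and Csf1r fell early. Clec4f, a galactose-binding C-type lectin of mouse Kupffer cells, had 7.80, 7.67 and 7.48 at 0.5 d, against 9.0, 8.54 and 9.02 at 0 d. All arrays of 0.5 d were below all arrays of 0 d, and so were all 9 of the early window, which ran from 7.48 through a median of 7.80 to 8.47. The early mean was 1.93-fold lower than 0 d, a log2 difference of -0.95 ± 0.185 (SE, 9 arrays against 3, limma adjusted p = 0.000208). Clec4f was called lower than 0 d at 5 of the 10 times, with log2 differences of -0.57 at 0.25 d, -1.20 at 0.5 d, -1.08 at 0.75 d, -0.69 at 1.5 d and -0.75 at 2 d. Late, its arrays ran from 8.78 through 9.26 to 10.11 and overlapped 0 d, with a difference of 0.529 ± 0.18 (adjusted p = 0.0796). Without the 3 high arrays of 4, 7 and 14 d it was 0.323 (adjusted p = 0.101).

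Csf1r, the receptor through which CSF1 and IL-34 keep macrophages alive, followed Clec4f closely. It had 8.86, 8.96 and 8.70 at 0.5 d, against 10.22, 9.77 and 10.31 at 0 d, and the arrays of the 2 times did not overlap. Over the early window it ran from 8.70 through 9.13 to 9.74, all 9 arrays below all of 0 d, and the mean was 1.92-fold lower (log2 difference -0.94 ± 0.2 SE, adjusted p = 0.000513). It was called lower at 0.5, 0.75, 1.5 and 2 d. Late it ran from 10.24 through 10.56 to 11.65, with a difference from 0 d of 0.637 ± 0.194 (adjusted p = 0.0517), just outside the threshold, and without the 3 high arrays 0.43 (adjusted p = 0.0591). Csf1r had 3 probe sets: the other 2 gave early differences of -0.436 (adjusted p = 0.0646) and -0.633 (adjusted p = 0.00983), so 1 of them did not pass. Their correlations with the first over 33 arrays were 0.956 and 0.984.

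Adgre1, an adhesion receptor used as a pan-macrophage marker in mice, was both lower early and higher late. At 0.5 d it had 6.29, 6.60 and 6.60, against 7.34, 7.09 and 7.52 at 0 d, with no overlap. The early window ran from 6.29 through 6.66 to 7.21, and the mean differed from 0 d by -0.645 ± 0.244 (SE, adjusted p = 0.0361). Late it ran from 7.50 through 7.94 to 9.15 and was 1.76-fold higher than 0 d (0.817 ± 0.236, adjusted p = 0.0423). The early window overlapped 0 d only through replicate 1 of 0.25 d, at 7.21. The late window overlapped it only through replicate 3 of 14 d, at 7.50. The early call was lost without any 1 of 5 arrays (replicates 1 and 3 of 0 d, 3 of 0.25 d, 1 of 0.5 d and 3 of 0.75 d), with adjusted p between 0.052 and 0.152. The late call was lost without any 1 of 9 arrays, with adjusted p between 0.0503 and 0.168. Without the 3 high arrays together the late difference was 0.547 (adjusted p = 0.0386).

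Timd4 (TIM-4), a phosphatidylserine receptor for dying cells that marks long-resident Kupffer cells, had its lowest values at 0.5 d. These were 4.54, 5.01 and 4.27, against 5.90, 5.29 and 5.99 at 0 d, a difference of -1.12 ± 0.318 (SE, n = 3 each, limma adjusted p = 0.00719). These are near the low end of the array's range, where differences are compressed. At 0.25 and 0.75 d it was not called, and over the early window the difference of -0.600 ± 0.26 missed the threshold (adjusted p = 0.0657). Without the 3 high late arrays the spread was narrower and it passed (adjusted p = 0.00745). The 4 markers called lower at 0.5 d were Clec4f, Timd4, Csf1r and Adgre1, and Marco was the 1 called higher.

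Marco, a class A scavenger receptor that binds bacteria and particles, had its lowest values at 0 d. It had 8.34, 6.26 and 6.27 at 0.25 d, against 4.76, 5.39 and 5.55 at 0 d. At 0.75 d it had 8.33, 7.96 and 7.78, and at 1 d 8.91, 8.83 and 9.01. On all 30 arrays after surgery Marco was above its highest 0 d value. It was called higher at 9 of the 10 times, with differences of 1.73 at 0.25 d, 2.79 at 0.75 d, 3.68 at 1 d and 3.33 at 3 d, and not at 14 d, where it had 9.04, 7.57 and 6.20. The early mean was 4.42-fold higher than 0 d (2.14 ± 0.512 SE, adjusted p = 0.00153), and the late mean was 8.3-fold higher (3.05 ± 0.496, adjusted p = 0.00164). Without the 3 high arrays of 4, 7 and 14 d the late difference was 2.54 ± 0.367 (adjusted p = 0.00109). A second Marco probe set gave 1.31 early (adjusted p = 0.0225) and 2.10 late (adjusted p = 0.00755). The 0 d values lie close to the floor of 5 used for testing, so these folds may be compressed.

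Cd5l, Timd4, Vsig4, Folr2 and Cd68 passed the test late, and with all arrays they did not pass it early. Cd5l, a secreted scavenger-receptor protein that supports macrophage survival and is driven by LXR, had 11.49, 11.81 and 11.50 at 3 d, against 10.24, 10.02 and 10.42 at 0 d. Late it ran from 10.55 through 11.45 to 12.24, so that all 12 arrays were above all of 0 d, and the mean was 2.4-fold higher (1.27 ± 0.295 SE, adjusted p = 0.0148). Without the 3 high arrays the late difference was 1.01 (adjusted p = 0.0323). Early it ran from 8.18 through 9.94 to 10.53, with a difference of -0.442 ± 0.305 (adjusted p = 0.256). The lowest early value, 8.18, came from replicate 3 of 0.5 d, against 10.19 and 9.84 in the other livers of that time.

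Vsig4 (CRIg), the complement receptor by which Kupffer cells catch opsonised bacteria, had 9.61, 9.87 and 9.45 at 3 d, against 8.94, 8.12 and 9.12 at 0 d. Its late mean was 2.05-fold higher than 0 d (1.03 ± 0.248 SE, adjusted p = 0.0173), and its early difference was -0.188 ± 0.256 (adjusted p = 0.582). Timd4 had 6.24, 6.97 and 6.68 at 3 d, against the 0 d values given above, and its late mean was 1.97-fold higher (0.977 ± 0.252, adjusted p = 0.0251) with all 12 arrays above 0 d. In the fit lacking the 3 high arrays, the late differences were 0.77 for Vsig4 (adjusted p = 0.0126) and 0.711 for Timd4 (adjusted p = 0.0276). Late, Marco, Cd5l and Timd4 were the markers without overlap with 0 d, where 0.953% of all genes lay wholly above it.

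Folr2, the folate receptor beta of resident macrophages, and Cd68, a glycoprotein of macrophage endosomes and lysosomes, passed the test late with smaller differences. Folr2 ran from 7.53 through 8.0 to 9.30 late, against 7.11, 7.54 and 7.60 at 0 d, a difference of 0.772 ± 0.226 (SE, adjusted p = 0.0446). The Folr2 call was lost without any 1 of 16 arrays, with adjusted p between 0.0503 and 0.203, and, among other settings, without the filter on low values (adjusted p = 0.0532). In the fit lacking the 3 high arrays, its difference was 0.503 (adjusted p = 0.0305). Cd68 ran from 6.53 through 7.38 to 8.18 late, against 6.24, 6.57 and 6.87 at 0 d, a difference of 0.796 ± 0.229 (adjusted p = 0.0416). The Cd68 call was lost without any 1 of 7 arrays, with adjusted p between 0.0502 and 0.197, and without the 3 high arrays together its difference was 0.56 (adjusted p = 0.0525). Early the 2 differed in sign, at -0.429 for Folr2 and 0.106 for Cd68, and neither passed (adjusted p = 0.146 and 0.744). Without the 3 high late arrays the early Folr2 difference was the same, and with the narrower spread it passed (adjusted p = 0.00789). Cd68 was already called higher at 1 d, with 7.71, 7.21 and 7.41 against 6.87, 6.24 and 6.57 at 0 d (0.884 ± 0.289, n = 3 each, limma adjusted p = 0.0347).

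The late calls other than that of Marco could be lost by leaving out a single array, most of all one of 0 d. In some of these fits the difference was the same and only the adjusted p moved. An example is Folr2 without replicate 2 of 1 d, at 0.772 (adjusted p = 0.0528). With the 3 high arrays of 4, 7 and 14 d left out, 6 markers were higher late (Marco, Cd5l, Timd4, Vsig4, Adgre1 and Folr2), where 1.38% of all genes were. Without replicate 1 of 0 d, or without replicate 2, only Marco was called. Leaving out replicate 3 of 0 d, replicate 2 or 3 of 3 d, or replicate 1 of 4 d left 4 markers each. The late differences of the 10 markers were all positive, 10 of 10 at an unadjusted p under 0.05. In that fit without the 3 high arrays, whose absence narrows the estimated spread, 8 were higher at 3 d and 1 at 4 d. The share of all genes called higher there was 10.6% at 3 d and 1.06% at 4 d.

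Cd163, the receptor that clears haemoglobin bound to haptoglobin, passed the test in neither window with all arrays. It had 7.59, 7.93 and 8.17 at 0.25 d, against 7.35, 5.67 and 7.25 at 0 d, and this was the only time at which it was called higher (1.14 ± 0.393 SE, n = 3 each, limma adjusted p = 0.02). Replicate 2 of 0 d, at 5.67, stood well below the other 0 d arrays, and it enters every comparison of Cd163 with 0 d. Over the early window the difference was 0.691 ± 0.321 (adjusted p = 0.0861) and late it was 0.679 ± 0.311 (adjusted p = 0.199). The early difference passed after quantile normalization (adjusted p = 0.0498), without the 3 high late arrays (adjusted p = 0.0483), and without replicate 1 of 0 d (adjusted p = 0.0395) or of 0.5 d (adjusted p = 0.038). Each of these settings kept the low replicate 2 of 0 d, which weighs more when replicate 1 is left out (difference 0.987). The early arrays ran from 6.49 through 7.47 to 8.17, around the 7.35 and 7.25 of the other 0 d livers. In the fit lacking the 3 high arrays, the late difference was 0.432 (adjusted p = 0.406). At 0.25 d, 2 markers were higher (Marco and Cd163) and 1 lower (Clec4f).

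The late window against the early window leaves out the 0 d arrays. All early arrays lie in the separate run of sample numbers and all late arrays in the other. Time and run therefore cannot be told apart in this comparison either. Here 9 of 10 markers were higher late, where 29.4% of all genes were called higher, and the median difference was 1.34 over the markers and -0.00444 over all genes. Csf1r was 2.98-fold higher late than early (1.58 ± 0.132 SE, adjusted p = 2.68e-10) and Clec4f 2.79-fold (1.48 ± 0.123, adjusted p = 2.13e-10). Cd5l was 3.26-fold higher (1.71 ± 0.202, adjusted p = 8.72e-08), Timd4 2.98-fold, Adgre1 2.76-fold, Vsig4 2.33-fold, Folr2 2.3-fold and Cd68 1.61-fold. Clec4f, Csf1r, Cd5l, Timd4, Vsig4 and Adgre1 had all 12 late arrays above all 9 early ones, which held for 4.89% of all genes. Cd163 differed by -0.0122, with a 95% interval from -0.449 to 0.424. Marco differed by 0.908 ± 0.339 (adjusted p = 0.0256). With the 3 high arrays left out, 8 markers were higher late, where 27.9% of all genes were. In that fit Marco stood at 0.399 (adjusted p = 0.21) and Cd68 at 0.453 (adjusted p = 0.00168). The Marco call was also lost without any 1 of 7 arrays, with adjusted p between 0.0513 and 0.0626.

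Between neighbouring times, Clec4f was already called lower at 0.25 d than at 0 d, as given above. At the next step 3 markers were called lower, of which Csf1r and Timd4 had not been called at 0.25 d. Clec4f differed by -0.63, Csf1r by -0.69 and Timd4 by -0.91, each called lower at 0.5 d than at 0.25 d, where 5.25% of all genes were called lower. From 0.75 to 1 d, 0 markers were called by limma (8 higher at an unadjusted p under 0.05), where 1.17% of all genes were, while 9 of 10 had all 3 values of 1 d above all 3 of 0.75 d, against 14.6% of all genes. From 1 to 1.5 d, 0 were called by limma (2 lower at an unadjusted p under 0.05), where 2.1% of all genes were, and 8 had all values lower, against 15% of all genes. The steps into and out of 1 d both cross the runs of sample numbers, so time and run cannot be told apart in them. From 2 to 3 d, 9 of 10 markers had all 3 values above the earlier ones, against 9.87% of all genes. Clec4f had 9.24, 9.42 and 9.09 at 3 d, against 7.90, 8.12 and 8.28 at 2 d (1.15 ± 0.227 SE, n = 3 each, limma adjusted p = 0.0239). Csf1r had 10.28, 10.51 and 10.24 at 3 d, against 8.89, 9.38 and 9.55 at 2 d (1.07 ± 0.245, n = 3 each, limma adjusted p = 0.047). These 2 were called higher, where 0.205% of all genes were. The 2 markers called higher at 1 d than at 0 d were Marco and Cd68. From 4 to 7 d and from 7 to 14 d limma called 0 markers and 0% of all genes, and 0 markers at an unadjusted p under 0.05.

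**Figure D3:**
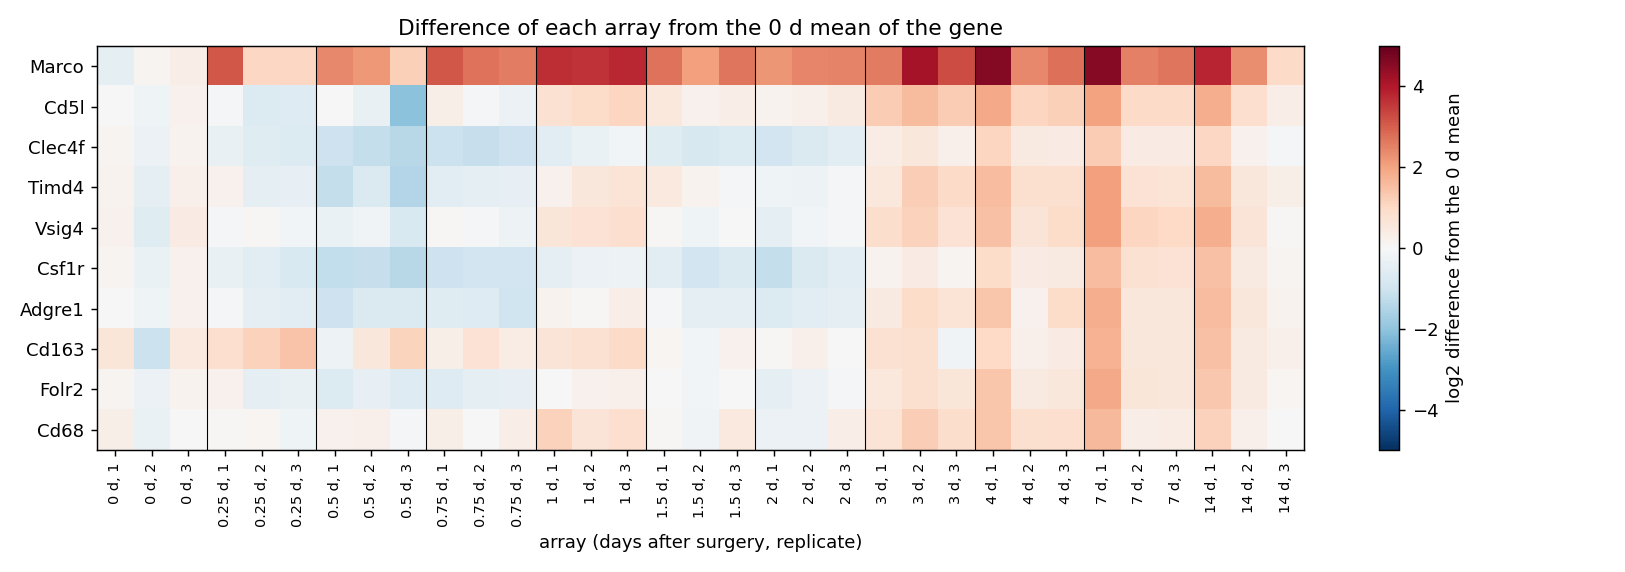
Log2 difference of each of 33 arrays (columns, by days and replicate) from the 0 d mean of the gene, for the 10 markers (rows); red is above and blue below the 0 d mean. The row of Marco is red on all arrays after surgery, Clec4f and Csf1r are blue from 0.25 to 2 d, and replicate 1 of 4, 7 and 14 d forms a darker red column over all rows.

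The markers moved together over the arrays to different degrees. Among the 45 pairs, Pearson's r over the 33 arrays ran from 0.165 (Cd5l and Cd163) through a median of 0.789 to 0.978 (Clec4f and Csf1r). Clec4f, Csf1r, Adgre1, Folr2, Timd4 and Vsig4 correlated with each other at 0.895 or more, Cd163 with no other marker above 0.533, and Marco with none above 0.734. These values describe arrays that share times and, in some, a common high or low array, and no test was made of them. Among all genes tested, other markers included, those most like Clec4f were Csf1r (0.978), Clec4a3 (0.97) and Cybb (0.956), a subunit of the phagocyte oxidase. Those most like Vsig4 were the complement gene C1qc (0.958), Tyrobp (0.939) and Lyz2 (0.938), and those most like Folr2 were C1qc (0.969), Adgre1 (0.965) and Itgal (0.958). Adgre1 was closest to Folr2 (0.965), C1qc (0.96) and Fyb (0.957). Csf1r was closest to Clec4f (0.978), Lyz1 (0.956) and Adgre1 (0.948), and Timd4 to Sdc3 and Folr2 (both 0.955) and Ly86 (0.94). Cd5l was closest to Abcg1 (0.935), a cholesterol exporter, Sdc3 (0.934) and Tmsb4x (0.931). The nearest genes of Marco were Wfdc17 (0.886), Ctsc (0.878) and Il18bp (0.836). Cd68 was nearest to Cyba (0.91), Cd48 (0.888) and Axl (0.884), and Cd163 to Stx3 (0.756), Pla2g7 (0.732) and Fcgr4 (0.726).

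To show how unequally the markers changed, each was also set against Clec4f on the same array, with the 0 d mean of that difference put at 0. This view was chosen after the data were seen and carries no test. Csf1r stayed near Clec4f, at 0.010 ± 0.0993 early (SD, 9 arrays) and 0.108 ± 0.235 late (SD, 12 arrays). Marco stood at 3.10 ± 0.904 early and 2.52 ± 0.739 late. Cd163 stood at 1.64 ± 0.506 early and 0.15 ± 0.271 late. Cd68 stood at 1.06 ± 0.395 early and 0.267 ± 0.25 late. Since Clec4f itself differed from 0 d by -0.95 early and 0.529 late, a gene without change would stand at the same sizes with the sign turned, near those of Cd68 early.

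**Figure D4:**
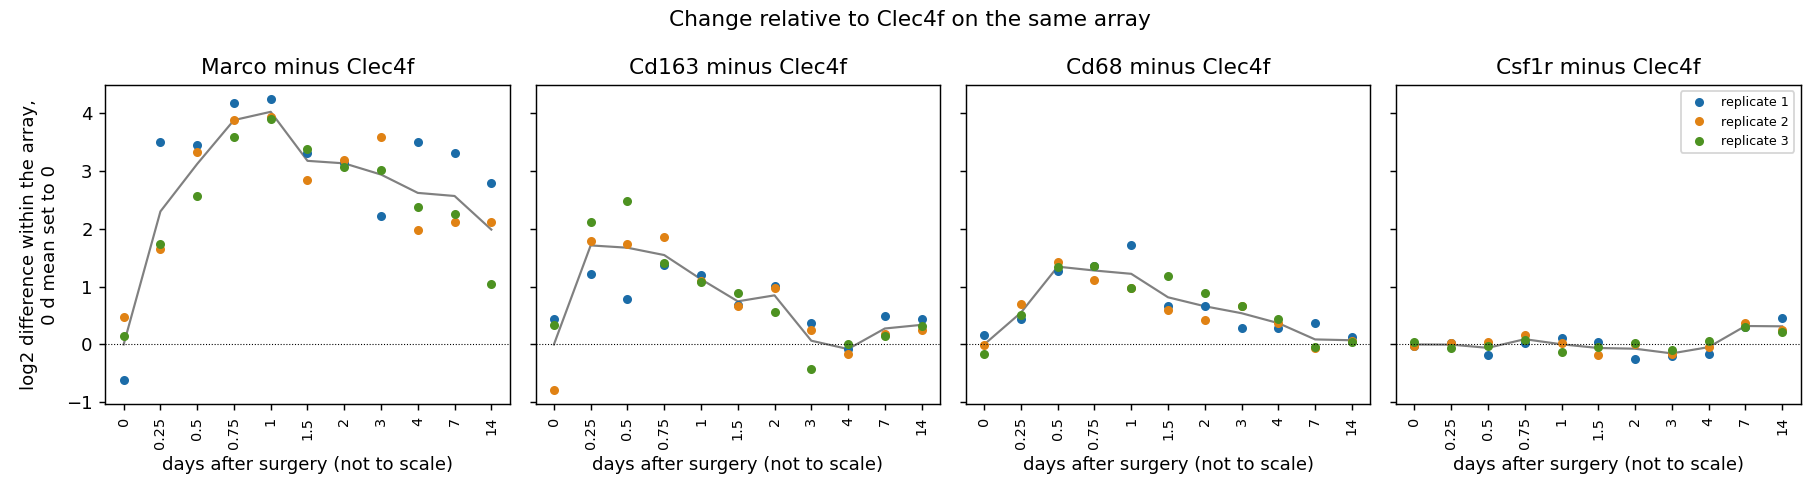
Log2 signal of Marco, Cd163, Cd68 and Csf1r minus that of Clec4f on the same array, with the 0 d mean set to 0 (vertical axis), against days after surgery (horizontal axis, evenly spaced); points are arrays coloured by replicate and lines join the means. Cd163 and Cd68 are above 0 early and return toward it by 3 to 7 d, while Csf1r stays near 0 up to 4 d; Clec4f itself was lower early.

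Other genes of the same cells were counted from lists chosen with earlier results of these data known. Of 13 other tested Kupffer-enriched genes, 3 were lower and 1 higher early, 4 were higher and 0 lower late, and 11 were higher and 0 lower in the late against the early window, with medians of -0.303, 0.551 and 0.864. Of all genes tested, 24.4% were lower and 17.3% higher early, 2.47% were higher late and 29.4% were higher late than early, so the early count lies near the background. In the fit lacking the 3 high arrays, the counts of this list were 6 lower and 1 higher early, 4 higher late and 11 higher late than early. Of all genes in that fit, 41.7% were called early (17.3% higher), 1.38% were higher late and 27.9% were higher late than early. Slc40a1, the iron exporter ferroportin, fell by 1.00 ± 0.217 early (SE, adjusted p = 0.000634), and Hpgd, which breaks down prostaglandins, fell by 0.964 ± 0.213 (adjusted p = 0.000733). The complement gene C6 fell early by 0.88 ± 0.157 (adjusted p = 7.22e-05), and C1qb, a chain of complement C1q, rose late by 0.938 ± 0.226 (adjusted p = 0.0177). Hepatocytes also make C6, so that gene is not specific to macrophages. Among 12 pan-phagocyte genes, 3 were lower early, 4 were higher late and 12 were higher late than early. The early share is that of all genes. With the 3 high arrays left out, 6 were lower early, 1 was higher late and 12 were higher late than early. Mpeg1, a pore-forming protein of phagocytes, fell early by 0.973 ± 0.223 (adjusted p = 0.00106) and rose late by 0.807 ± 0.216 (adjusted p = 0.0296), a late call lost without the 3 high arrays (0.692, adjusted p = 0.0581).

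Of 12 scavenger receptors outside the markers, 2 were higher and 4 lower early, and 3 were higher late (1 without the 3 high arrays). Msr1, the class A receptor related to Marco, differed by 0.24 ± 0.139 early (adjusted p = 0.171) and rose late by 0.666 ± 0.134 (adjusted p = 0.00527). Scara5, a ferritin receptor, rose early by 2.81 ± 0.387 (adjusted p = 2.63e-06) and late by 1.32 ± 0.374 (adjusted p = 0.0391), the late call being lost without the 3 high arrays (adjusted p = 0.0536). The mannose receptor Mrc1 fell early by 0.43 ± 0.143 (adjusted p = 0.0182). Of 11 macrophage transcription factors, 3 were higher and 2 lower early, and limma called 0 late (4 higher at an unadjusted p under 0.05). Id1 rose by 1.63 ± 0.323 (adjusted p = 0.000236), Klf4 by 0.888 ± 0.292 (adjusted p = 0.0166), and Zeb2 fell by 0.625 ± 0.176 (adjusted p = 0.00589). Of the 5 tested genes for ligands of Csf1r and for related growth factor receptors, 0 passed in either window in limma (1 higher in each at an unadjusted p under 0.05). Among 9 haem and iron genes, 3 were higher and 1 lower early, and Hmox1, which breaks down haem, rose early by 1.49 ± 0.223 (adjusted p = 8.23e-06). Among 9 cytokines and chemokines, 1 was higher and 2 lower early, and Il18 fell by 1.41 ± 0.107 (adjusted p = 3.19e-10).

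Markers of other cells were counted in the same windows, where the early background was 17.3% of all genes higher and 24.4% lower, and the late one 2.47% higher and 2.85% lower. Of 10 tested genes of recruited monocytes and macrophages, 6 were higher and 0 lower early and 1 was higher late, with Chil3 up early by 1.7 ± 0.483 (adjusted p = 0.00642). Chil3 lies near the floor, with a median of 4.43 over all arrays and a value of 5 or more on 7 of them. The mean level of this list per array, over 12 measured genes, ran from 5.33 to 5.50 at 0 d, 5.58 to 6.16 at 0.25 d and 5.75 to 5.84 at 3 d. Of 9 neutrophil genes, 4 were higher early and 1 late, with S100a9 up by 2.32 ± 0.458 (adjusted p = 0.000236) and 1.83 ± 0.443 (adjusted p = 0.0181). Of 4 peritoneal macrophage genes, 2 were higher early and 1 late. Of 5 dendritic cell genes, 2 were lower early and 1 late, while their early median was 0.0665. The 2 lower early were H2-Aa and Cd74, and the rest of the list was called in neither window. H2-Aa, an MHC class II chain, differed from 0 d by -1.85 ± 0.281 early (adjusted p = 9.7e-06) and by -0.972 ± 0.272 late (adjusted p = 0.0372). Of 10 sinusoidal endothelial genes, 4 were lower and 1 higher early and 0 were called late in limma (0 also at an unadjusted p under 0.05). Of 7 T, NK and B cell genes, 0 passed in either window in limma (1 lower early and 0 late at an unadjusted p under 0.05). Stellate cell genes gave 1 higher and 2 lower of 8 early, and hepatocyte genes 1 higher and 2 lower of 7, near the background. Both erythroid genes tested were lower early, and 1 of 3 adipocyte genes was higher. In the late against the early window, 6 of 10 sinusoidal endothelial genes were higher and 1 lower, and 4 of 8 stellate cell genes were higher and 2 lower. Recruited monocyte and macrophage genes gave 1 higher and 1 lower of 10, and neutrophil genes 0 higher and 3 lower of 9. The background there was 29.4% of all genes higher and 25% lower. In the fit lacking the 3 high arrays, the late counts of these cell types against 0 d were the same. The exception was 2 dendritic cell genes lower in place of 1. The part of these cells in the marker values was not tested.

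**Figure D5:**
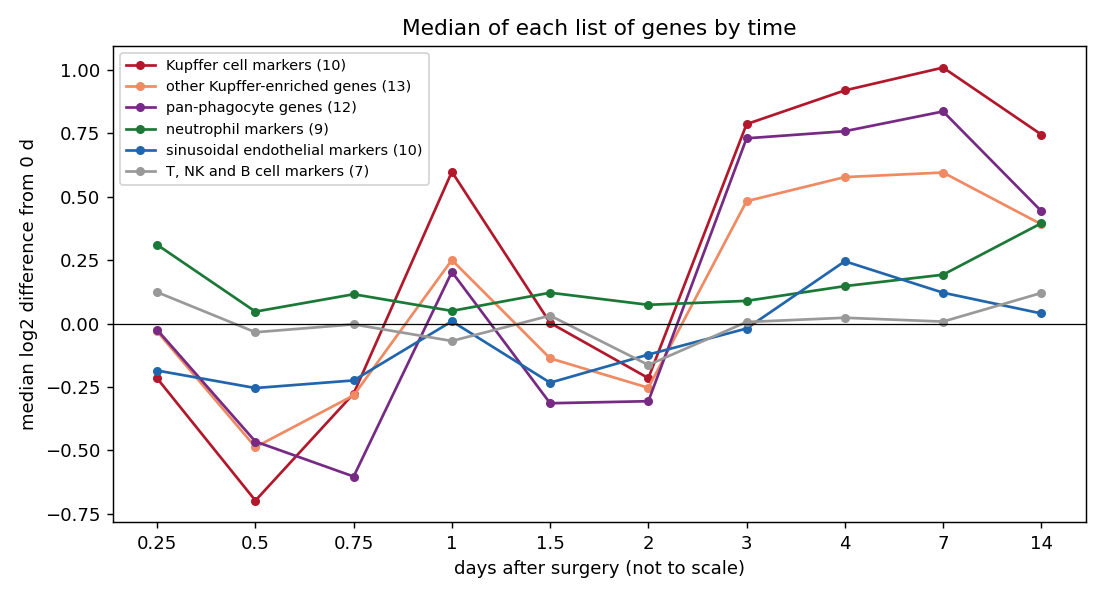
Median log2 difference from 0 d (vertical axis) of the tested genes of each list against days after surgery (horizontal axis, evenly spaced); the number of genes is in the legend. The Kupffer cell markers, the other Kupffer-enriched genes and the pan-phagocyte genes are all below 0 at 0.5 d and above 0 from 3 d on, while the T, NK and B cell genes stay close to 0.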

How the data were processed

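Total RNA of 33 mouse livers (11 times, 3 biological replicates each) was measured on Affymetrix arrays. The values the authors deposited are log2 signals, and the submitters' processing notes name RMA, without a version in the sources used here. RMA removes shifts common to most genes and compresses differences near the floor. All 33 columns of the value table were matched to samples by name. Of 45101 probe sets, 34945 carried a single symbol in the platform annotation, and 34741 of these matched the reference gene table by Entrez number, with 0 symbols changed. The probe set with the highest mean stood for each of 18193 genes, and 13642 with a log2 value of at least 5 on 3 or more arrays were tested.

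The linear model of limma 3.58.1 (R 4.3.3) held 1 mean for each time, with eBayes moderation. It had 22 residual and 3.69 prior degrees of freedom over the 33 arrays. P-values are two-sided, adjusted by Benjamini-Hochberg over all genes tested within each comparison, with a threshold of 0.05; n counts livers. The spread between livers of the same time was estimated as 1 value per gene, pooled over all 33 arrays. A comparison therefore takes its SE partly from livers of times that it does not compare. For Marco the SE of the difference from 0 d was 0.627 at 1 d (SD 0.0906) and at 14 d (SD 1.42). P-values rest on the pooled spread, and the 0 d arrays are shared by all comparisons with 0 d. The number of arrays limits the precision. The fit was tested on simulated data. Plots used Python 3.11.15 with matplotlib 3.10.9.

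The 10 markers and the 17 other lists (169 genes, 153 measured, 135 tested) were chosen with earlier results of these data known. All 10 markers are named. From each other list up to 4 genes past the threshold in either window were eligible, those with the largest difference, and for each marker the 3 genes with the highest correlation over the arrays. Alternatives were other filters, normalizations, windows, weights and array subsets, and leaving out each array in turn.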

Additional observations from a re-analysis of the deposited data

How the results depend on the processing

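Over all alternatives, 0 marker values changed direction past the threshold. The count of 9 markers varying over time and the 0 lower late held in all leave-one-out fits, and the late against early count ran from 8 to 9. Leaving out each array in turn gave 2 to 4 markers lower and 1 to 2 higher early (2 without replicate 1 of 0 d or of 0.5 d, when Cd163 passed), 1 to 9 higher late, and 5 to 13 lower and 10 to 21 higher calls over the 10 single times, where the main counts were 11 and 16. The late count of 7 fell to 1 without replicate 1 or 2 of 0 d, and the lower calls to 5 without replicate 1 or 3 of 0 d. The late count was 4 with array weights, 2 with only the arrays compared, 1 with a window of 7 and 14 d, 2 with 2, 3 and 4 d, and 4 without the arrays where Adipoq reached 5. Early, 5 were lower with only the arrays compared, and 2 were higher after quantile normalization. Adjusting all times jointly gave 29 higher calls over the single times. Without the 3 high late arrays (chosen after seeing the data, as was the Adipoq setting), 17 calls were lower over the single times. Early, 5 markers were lower and 2 higher in that fit, where 41.7% of all genes were called (17.3% higher). Without the Adipoq arrays, 5 calls were lower. For the other settings of this section no share of all genes is given, so their counts describe the markers only. The cause of these shifts in the counts was not tested. With the replicate number as a block, 9 markers varied, 11 calls were lower and 17 higher, 3 markers were lower and 1 higher early, 8 were higher late (Csf1r passing, adjusted p = 0.0446), 9 were higher late than early and 0 differed at 1.5 d. Same-numbered arrays had a median correlation of deviations of 0.0179 (165 pairs, from -0.353 to 0.389), against -0.0101 for 330 other pairs, so the numbers were not treated as pairing the samples. Among the markers, signals near the array floor limit Marco at 0 d and Timd4. Among genes of the other lists they limit, for example, Chil3 and Klf4.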
